A study of Rattus norvegicus with 40 samples.

Results

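Cytosolic ribosomal proteins, the protein parts of the ribosome outside mitochondria, were followed in total RNA of rat cerebral cortex on 40 Affymetrix arrays. A probe set was taken when the array annotation gave it a single gene whose symbol is Rpl or Rps followed by a digit, or Rplp0, Rplp1, Rplp2 or Rpsa, with the Rps6k kinases left out. The rule found 57 probe sets of 50 genes, of 14217 genes with a probe set of their own. Sorted by symbol alone, 33 of these 50 genes count as large subunit, 16 as small subunit, and Rplp0 as the stalk of the large subunit. These counts include the pseudogenes Rpl37-ps2 (large) and Rps4x-ps1 (small), and Rpl7l1 (large), which takes part in ribosome assembly. In 6 genes with several probe sets, the brightest by its 40-array mean stood for the gene.

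Per the labels, 20 arrays came from rats given hypoxic preconditioning, in which a brief spell of mild oxygen lack protects the brain against a harmful one that follows, and 20 from sham rats kept at normal oxygen. The samples of both groups are numbered 1 to 20 and are listed in runs of 5 numbers, 1 to 5, 6 to 10, 11 to 15 and 16 to 20. The labels do not say what these 4 runs are, and no time or age is assigned to them here. No strain, age, oxygen level or length of exposure is stated in the sources used here. The labels do not tell whether samples are separate animals, so the spread between samples, and with it every p-value, may be technical in part. Neuron transcripts were present on all arrays, with an intensity of 1118 to 1745 for Neurod6 and 2987 to 5369 for Snap25. The neuron marker Tbr1 gave 81.3 to 184, and the striatum marker Drd1 gave 133 to 208. Blood and choroid plexus transcripts were also present, with an intensity of 3169 to 8449 for Hbb, a haemoglobin chain, and of 62.4 to 6567 for Ttr, the main choroid plexus transcript.

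A ribosome consists of a small subunit, which decodes the mRNA, and a large subunit, which joins amino acids. Each holds a fixed set of proteins, mostly in 1 copy, around ribosomal RNA. The mRNAs of these proteins are among the most abundant of a cell, and most begin at a C that is followed by a run of C and T, the terminal oligopyrimidine (TOP) motif. Through this motif, the kinase mTOR and the RNA-binding protein LARP1 control how these mRNAs are translated and kept stable, and low oxygen is known to lower mTOR activity. Arrays measure the amount of mRNA, not its translation.

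The start of the gene is shown for 9 members whose values are described below, because the pyrimidine run at the start is what ribosomal protein genes are known to share. Each window holds the 15 bases before and the first 15 bases of the gene from the RefSeq table of assembly GRCr8, written 5′ to 3′ on the gene's strand, and capitals mark the longest run of C and T. The windows lie at chr10:83519049-83519078 (plus strand) for Rpl19, chr1:172974558-172974587 (plus) for Rpl27a, chr3:36661925-36661954 (plus) for Rpl12, chr1:105325255-105325284 (plus) for Rpl18, chr12:46718376-46718405 (minus) for Rplp0, chr14:1995211-1995240 (minus) for Rpl5, chr10:54109677-54109706 (plus) for Rpl26, chr9:21695703-21695732 (plus) for Rpl7l1 and chr8:76443643-76443672 (plus) for Rps27l.
Rpl19: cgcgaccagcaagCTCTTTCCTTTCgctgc
Rpl27a: cgagacttggtgggCTCCTCCCTCTTTCTT
Rpl12: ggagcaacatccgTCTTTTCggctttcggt
Rpl18: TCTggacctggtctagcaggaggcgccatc
Rplp0: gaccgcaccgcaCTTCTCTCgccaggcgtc
Rpl5: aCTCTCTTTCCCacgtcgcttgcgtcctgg
Rpl26: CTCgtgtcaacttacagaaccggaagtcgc
Rpl7l1: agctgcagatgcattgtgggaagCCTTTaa
Rps27l: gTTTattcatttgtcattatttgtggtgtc

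The run was 12 bases in Rpl19, 16 in Rpl27a, 7 in Rpl12, 8 in Rplp0 and 11 in Rpl5. In Rpl18 and Rpl26 it was 3 bases, in Rpl7l1 5 and in Rps27l 3. A promoter entry was found for 41 of the 50 genes. A run of at least 8 pyrimidines lay in the 30 bases around the annotated start in 23 of these 41 genes (56.1%), against 2098 of 19005 protein-coding genes in the same table (11%). A C at the annotated start itself with 4 pyrimidines after it was found in 11 of 41 members (26.8%) and in 2.44% of all. The core letters that hypoxia-inducible factors bind, ACGTG or GCGTG, were searched on both strands of the 300 bases from 250 before to 50 after the start. ACGTG was present in 13 of 41 members (31.7%) and 20.4% of all promoters, and GCGTG in 19 of 41 (46.3%) and 35.8%. The 7 letters CCGGAAG, which ETS family factors bind, were present on either strand in 10 of 41 members (24.4%) and 11.2% of all. TATAAA was present between 40 and 16 bases before the start, on the gene's strand, in 2 of 41 members (4.88%) and 1.82% of all. These are matches of letters in fixed windows around annotated starts.

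Values are log2 of the deposited intensity, with intensities below 16 set to 16. Of the 50 genes, 44 reached the 40th percentile of mean level over all probe sets, an intensity of 31.9, and were tested. The 6 others were Rpl30, Rps13, Rpl39l1, Rpl3l, the muscle form of Rpl3, and the pseudogenes Rpl37-ps2 and Rps4x-ps1, of which Rps4x-ps1 was at the floor on all 40 arrays. The probe set of Rpl30 was at the floor on 26 arrays and that of Rps13 on 16, although both encode core ribosomal proteins, so their probe sets give no level here. Intensities of different probe sets are not amounts of mRNA that can be set against each other, and ranks below only say where a signal lies on the scale of the array.

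On that scale, 34 of the 44 tested members had a mean in the top 1% of all probe sets. Rps29 had the highest mean signal, a geometric mean intensity of 8394, followed by Rpl26 with 6421, Rps23 with 6269, Rpl27a with 6114 and Rpl3 with 6090. Rpl14, Rpl22, Rps28 and Rpl21 lay just outside the top 1%, with geometric mean intensities of 2088, 2175, 2488 and 2606, and Rpl24 just inside, at 2654. Rpl7l1, a relative of Rpl7 that takes part in ribosome assembly, lay at the 88.7th percentile. The other 5, at the 42.8th to 59.5th percentiles, were Rpl28, Rpl26l1, Rps27l, Rps4y2 and Rpl39. Rpl28 and Rpl39 encode core ribosomal proteins, as Rpl30 and Rps13 do. Their geometric mean intensities were only 36.8 and 84.0, so their probe sets may not report the level of the mRNA. Both stay among the 44 tested members below.

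The array maximum ranged from 9565 to 16623 and the highest member value of an array was 62.5% to 84.9% of it. No member came within 10% of the maximum on any of the 40 arrays. Over all 40 arrays, the spread within a group and run did not shrink toward the top of the scale. The median SD was 0.11 (log2) over probe sets between the 95th and 99th percentiles, 0.14 over the lower part of the top 1%, and 0.16 over the upper part, from an intensity of 3770. The 23 members in that upper part had a median SD of 0.15. These SDs include preconditioned arrays 5 and 6 and were not computed without them. On these 2 arrays the median of the other probe sets in the top 1% was 12.29 and 12.32 (log2), the highest of all arrays. The deposited values had been scaled, so the limit of the scanner itself is not known from them.

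Preconditioned arrays 5 and 6 stood apart before any comparison. Their median level over the 44 tested members was 12.40 and 12.29 on the log2 scale, against 11.65 to 12.15 on the other 38 arrays. Preconditioned array 11 held the upper end of that range. The array medians over all probe sets of arrays 5 and 6 were below those of the other 38 (5.71 to 5.82). RNA integrity, read from the 3′ over 5′ control ratios, was 1.38 to 1.90 by actin and 0.892 to 1.06 by GAPDH over the 40 arrays.

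**Figure D1:**
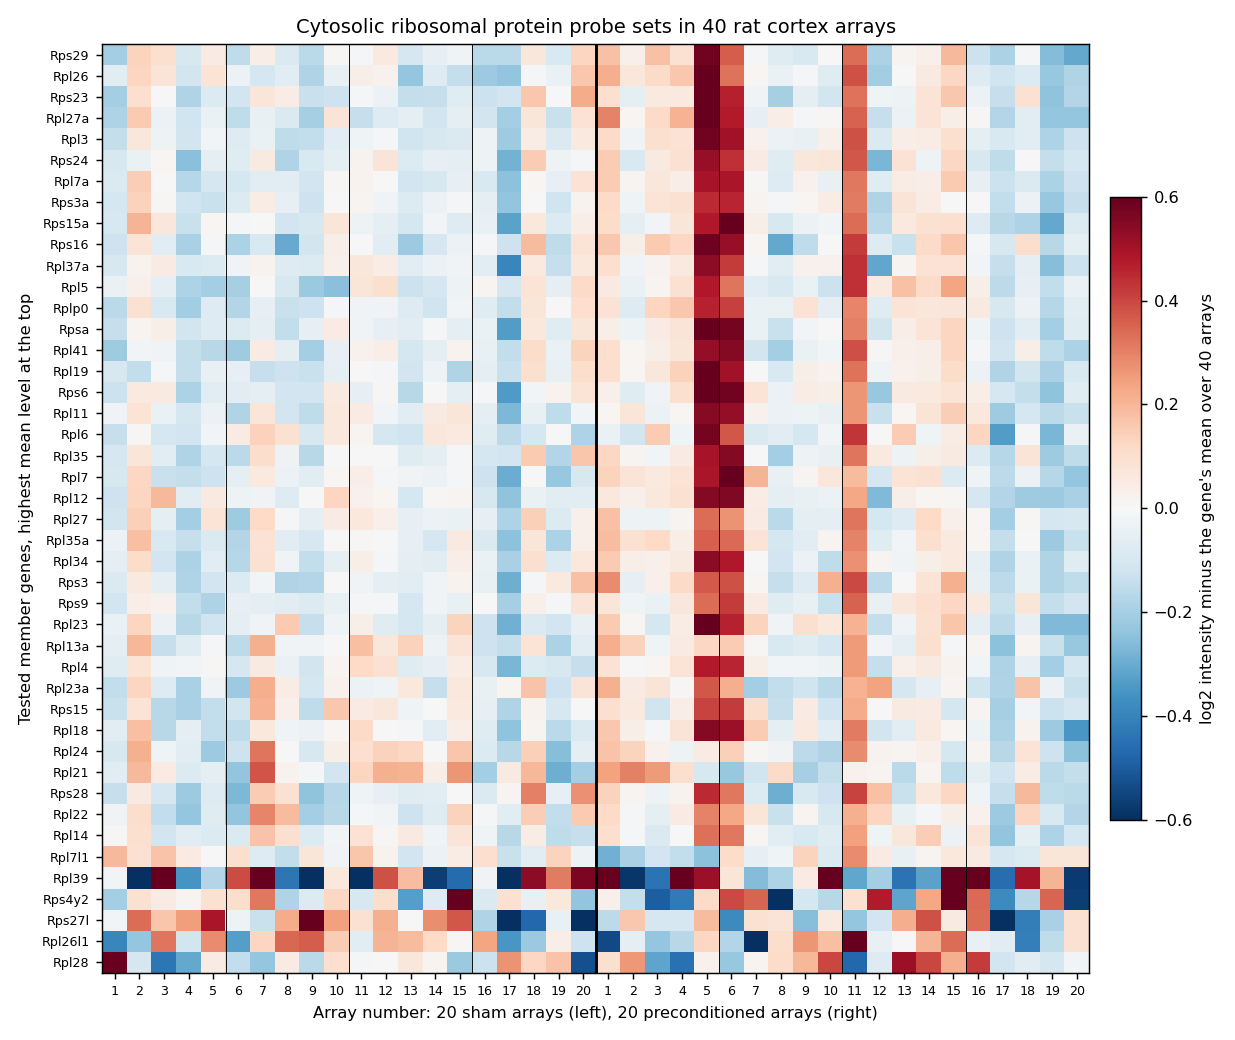
Heat map of the 44 tested ribosomal protein genes (rows, highest mean level at the top) on 20 sham and 20 preconditioned arrays (columns, by sample number, thin lines between runs). Colour is the log2 intensity minus the mean of the gene over 40 arrays. Most rows of the top 1% turn red together on preconditioned arrays 5, 6 and 11, while Rpl21 and the 6 rows at the bottom, from Rpl7l1 to Rpl28, do not follow them on all 3.

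In numbers 1 to 5, the signals of the abundant ribosomal proteins lay higher in preconditioned than in sham cortex, but none of these differences passed the test across all probe sets. All 34 members of the top 1% were above 0, by 0.11 to 0.30 on the log2 scale. The only member called was Rpl7l1, which fell. The median over the 44 members was 0.20, against -0.03 over all 18625 probe sets tested. In bulk tissue, fewer cells of a type and less RNA per cell cannot be told apart. The call rule was limma with p-values adjusted by Benjamini and Hochberg over all probe sets, at a threshold of 0.05, and it called 2.39% of all probe sets. The 1 member in 44 is near that background. At an unadjusted p under 0.05 there were 25 members. Counts at an unadjusted p, here and below, stand without the share of all probe sets at that threshold and are not calls. The members also moved together from array to array, so such a count does not hold independent results.

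The other 277 probe sets of the top 1% had a median difference of 0.17 in the same comparison, 273 of them were above 0 and 4 were called higher. When each array was centred on these probe sets, the member median was 0.004, a setting that moved the median of all probe sets to -0.23. Quantile normalization gave a member median of 0.0058. Without preconditioned arrays 5 and 6 it was 0.11, with Rpl7l1 called and 11 members at an unadjusted p under 0.05. Without preconditioned array 2, Rpl27a and Rplp0 were called as well. No neuron marker of 19 was called in this comparison, with summed intensities of 23307 to 28821 in preconditioned and 21854 to 23889 in sham cortex. Of 11 endothelial and mural markers 4 were higher and 1 lower, at backgrounds of 1.23% and 1.15%. Their sums were 2330 to 2703 and 2492 to 2772, and the part of these marker lists in the result was not tested.

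Rpl27a, a large subunit protein, had the largest positive difference, and its 5 preconditioned values were 7508, 6155, 6629.5, 7054 and 9700. The 5 sham values were 5383, 6808, 5971, 5629 and 5945. Array 5 was the highest of the preconditioned values, and 1 sham value, that of number 2, lay inside the preconditioned range. The difference was 0.30 ± 0.10 (SE, n = 5 per group, limma adjusted p = 0.087), and 0.20 without array 5.

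Rpl19, another large subunit protein, had values of 4588, 4311, 4487, 4710 and 6731 in preconditioned and of 3994, 3860, 4240, 3868 and 4138 in sham cortex. Here the groups did not overlap. The difference was 0.29 ± 0.09 (limma adjusted p = 0.078). Rpl41, the shortest ribosomal protein, and Rpl7l1 were the other members without overlap, which makes 3 of 44, and 4.28% of all probe sets had groups without overlap. Rplp0, the stalk protein often used as a reference gene for PCR, differed by 0.24 ± 0.08 (limma adjusted p = 0.11). Without array 5 the difference was 0.17 in Rpl19 and 0.16 in Rplp0.

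Members with known roles beyond the core ribosome differed by 0.12 to 0.23, and none passed the test. Rpl5 and Rpl11, which bind Mdm2 when assembly is disturbed, differed by 0.21 ± 0.08 and 0.15 ± 0.09. Rps6, the substrate of the S6 kinases, differed by 0.19 ± 0.10. Rpsa, also known as the laminin receptor, differed by 0.20 ± 0.10 and Rps3, which also acts in DNA repair, by 0.23 ± 0.09. Rpl13a, part of a complex that silences inflammatory mRNAs, differed by 0.12 ± 0.07. The limma adjusted p-values of these 6 were 0.18 to 0.44. Without preconditioned array 5, Rpl11 differed by 0.04, Rps6 by 0.06, Rpsa by 0.09, Rpl13a by 0.11, Rpl5 by 0.12 and Rps3 by 0.17, so the values of Rpl11, Rps6, Rpsa, Rpl5 rest in part on that array. Of the genes to be given whatever their result, 16, among them Rplp1, Rplp2, Rps14, Rps19, Rps25 and Rpl38, have no probe set of their own and are not analysed here.

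In numbers 6 to 10 the median over members was 0.12, in numbers 11 to 15 it was 0.10, and in numbers 16 to 20 it was -0.04. The members above 0 numbered 36, 40 and 6 of 44. Limma called no member in any of these 3 runs, at backgrounds of 2.22%, 0.0698% and 0%, and 4, 2 and 0 members had an unadjusted p under 0.05. Without preconditioned array 6, which belongs to numbers 6 to 10, the median there was 0.016, and without preconditioned array 11 that of numbers 11 to 15 was 0.043. In numbers 16 to 20 it lay between -0.093 (without sham array 17) and -0.017 (without sham array 18). Quantile normalization gave -0.0013, 0.027 and -0.0086 in the 3 runs, and centring on the other top 1% probe sets gave 0.015, 0.047 and -0.020. The medians of the other 277 probe sets of the top 1% were 0.13, 0.07 and -0.04 in the same order.

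Averaged over the 4 runs, the member median was 0.08, with 38 members above 0, no member called and 18 at an unadjusted p under 0.05, at a background of 3.99%. Without arrays 5 and 6 the median was 0.04. Quantile normalization gave -0.0039, with 19 members above 0 and 2 at an unadjusted p under 0.05, and centring on the other top 1% probe sets 0.0039, with 26 above 0 and 8. When numbers 16 to 20 were left out of the average, 6 members were called, all higher, in a fit that called 6.64% of all probe sets, 3.04% higher. Limma's F-test of whether the difference changed between runs called no member, with 3 at an unadjusted p under 0.05 (Rpl7l1, Rpl19 and Rpl21), at a background of 0.762%. Small and large subunit members of the top 1% went side by side, with medians of 0.21 and 0.21 in numbers 1 to 5 and of -0.05 and -0.05 in numbers 16 to 20 (11 small subunit members, 23 large subunit and stalk members).

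**Figure D2:**
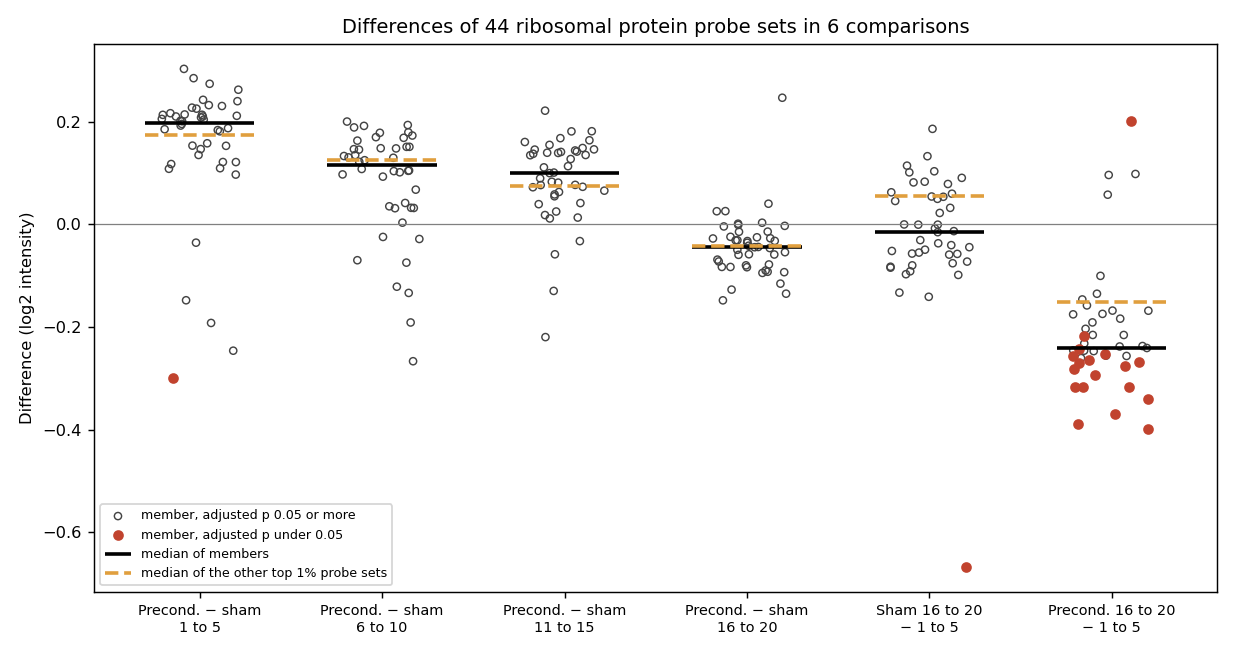
Differences of the 44 tested members (1 point each, spread sideways for view) on the log2 scale in 6 comparisons, with the median of members (black line) and of the other 277 probe sets of the top 1% (dashed line). Filled points have a limma adjusted p under 0.05. The black and dashed lines lie close together in the first 4 columns, at 0.20 and 0.17 in numbers 1 to 5, and the filled points lie almost all in the last column.

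Rpl7l1 behaved unlike the abundant members. In numbers 1 to 5 its intensity was 339, 361, 382, 373 and 349 in preconditioned cortex and 473, 440, 465, 428 and 412 in sham. Every preconditioned value lay below every sham value. It was lower by a difference of -0.30 ± 0.07 (n = 5 per group, 0.813-fold, limma adjusted p = 0.0072). Centring each array on its median ended the call (-0.23, limma adjusted p = 0.11).

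In the later runs the Rpl7l1 groups overlapped, with differences of 0.03, 0.06 and 0.002, all ± 0.07. Its second probe set differed by -0.18 in numbers 1 to 5 (limma adjusted p = 0.20) and so was not called. The mean of both probe sets was called, at -0.24 (limma adjusted p = 0.0067). Whether the difference itself changed between runs did not pass the test (limma adjusted p = 0.094). With the replicate block, and with the mean over all probe sets of a gene, that test called it.

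**Figure D3:**
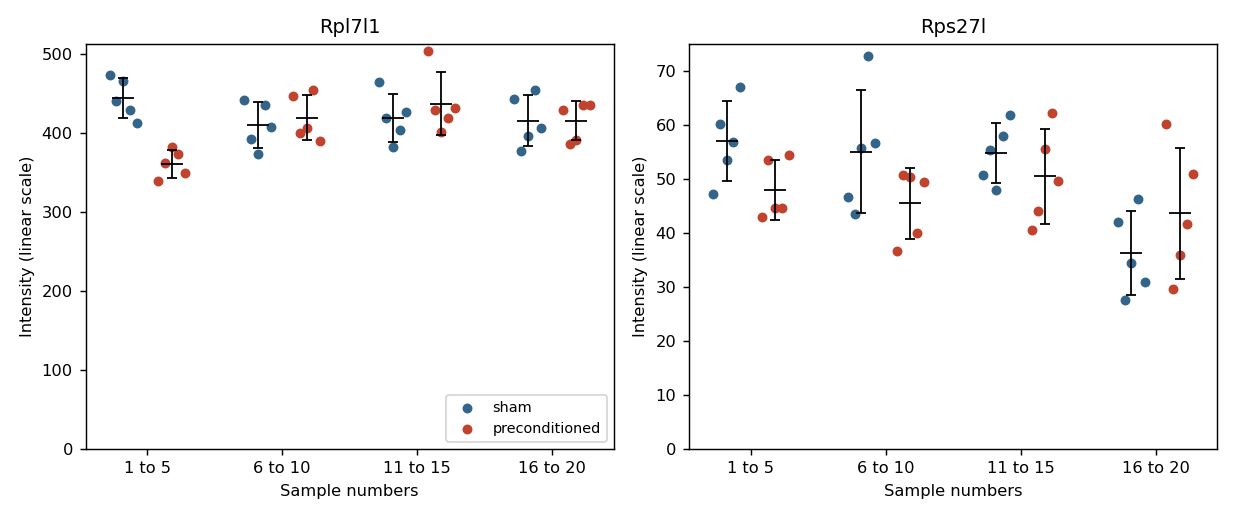
Intensity (linear scale from 0) of Rpl7l1 and Rps27l in sham and preconditioned arrays by run of sample numbers, 5 arrays per group, with the mean and SD as black bars. The preconditioned Rpl7l1 values in numbers 1 to 5 lie between 339 and 382, below all sham values there, and the sham Rps27l values in numbers 16 to 20 lie between 27.6 and 46.3.

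In sham cortex the ribosomal proteins moved little from run to run by their median. From each run to the next, the median over members moved by 0.001, 0.02 and -0.02, and from numbers 1 to 5 to numbers 16 to 20 by -0.01. No member was called by limma in the 3 steps, at backgrounds of 1.26%, 0.29% and 0.65%, and 0, 0 and 5 members had an unadjusted p under 0.05. The F-test over the 4 sham runs called 1 member at a background of 13.7%, and numbers 16 to 20 against 1 to 5 called 1 at a background of 14.8%. In both this was Rps27l. The other probe sets of the top 1% had a median of 0.05 over that span, with 16 called higher and 4 lower. Centred on those, 4 members were called lower (Rpl4, Rpl7, Rpl12 and Rps27l), at 4.68% of all probe sets called lower. Quantile normalization called 8 members, all lower, at 8.34% of all probe sets called lower.

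Rps27l, a relative of Rps27 that p53 induces, gave sham intensities of 47.3, 60.2, 53.5, 56.9 and 67.0 in numbers 1 to 5. In numbers 16 to 20 they were 42.1, 27.6, 34.4, 46.3 and 30.9. These 2 groups did not overlap, as in 2 of 44 members (the other is Rpl4) and 10.5% of all probe sets. The fall was -0.67 ± 0.17 (n = 5 per group, 0.63-fold, limma adjusted p = 0.0055). In preconditioned cortex the same span gave -0.17 ± 0.17 (limma adjusted p = 0.51). The difference between these 2 changes was 0.49 ± 0.23 and did not pass the test (limma adjusted p = 0.42). This signal lies low on the scale, and the stricter filter at the 60th percentile left the probe set out. Without sham array 17, or with centring on the other top 1% probe sets, the F-test over the sham runs no longer called it.

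In preconditioned cortex the abundant ribosomal proteins were lower in numbers 16 to 20 than in numbers 1 to 5. Of the 44 members, 17 fell and 1, Rpl7l1, rose, with a median of -0.24 over all 44 against 0.01 over all probe sets. The background was 17.6% in both directions and 8.03% for lower. All 34 members of the top 1% were below 0. This comparison shares its first group with that of preconditioned against sham in numbers 1 to 5, so the 2 are not independent.

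Rpl27a had the largest fall, from the 5 values given above to 6142, 5406, 5840, 5202 and 5209, a difference of -0.40 ± 0.10 (0.758-fold, limma adjusted p = 0.0038). Every later value lay below every earlier one. Rps29, a small subunit protein, went from 9468, 8585, 9470, 8931 and 12524 to 7666, 7358, 8326, 7015 and 6783, again without overlap. Its difference was -0.39 ± 0.10 (limma adjusted p = 0.0038). Rpl26, which also binds p53 mRNA, fell by 0.37, Rpl12, part of the stalk base, by 0.34, and Rpl18 by 0.32 on the log2 scale.

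Groups did not overlap in 13 of 44 members, against 11.6% of all probe sets. Rpl7l1 went the other way by 0.20 ± 0.07 (limma adjusted p = 0.029), and without preconditioned arrays 5 and 6 its adjusted p was 0.052. The F-test over the 4 preconditioned runs called 9 members at a background of 22.8%, and 9 of 44 does not exceed that share. This F-test called 22 without array 6, 15 without arrays 5 and 6 (22.4% of all probe sets), and 4, 2 and 3 without arrays 17, 19 and 20.

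The count rests in part on array 5. Without it, 5 members were called, all lower, at 7.66% of all probe sets called lower. Without arrays 5 and 6 there were 13 lower, 12 of them among those called with all arrays, at a member median of -0.15. The background for lower was then 8.75%. Leaving out preconditioned array 17, 19 or 20 gave 11, 7 and 9. When only the 10 arrays compared were fitted, 8 were called. Quantile normalization called 8 lower and 1 higher, at backgrounds of 8.38% and 9.18%. Centring on the other top 1% probe sets called 10 lower and 1 higher, at backgrounds of 1.54% and 17.9%.

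The other 277 probe sets of the top 1% had a median of -0.15 over this span, with 63 called lower and 1 higher. The fall in preconditioned and the change in sham cortex were also set against each other. The member median of this difference was -0.23, and limma called no member, at a background of 0.424%, while 19 members had an unadjusted p under 0.05. Without preconditioned array 5 the median was -0.15, with 7 members at an unadjusted p under 0.05, and this number was 11 without sham array 18. Quantile normalization gave -0.0050, with 20 members above 0 and 4 at an unadjusted p under 0.05. Rpl19 had the most negative value, -0.40 ± 0.13 (limma adjusted p = 0.22), and -0.29 without preconditioned array 5.

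Marker lists of cell types moved over the same span, and their part in the result was not tested. Backgrounds over this span in preconditioned cortex were 9.58% for higher and 8.03% for lower. In preconditioned cortex, of the markers of progenitors and dividing cells 5 of 15 fell and none rose, among them Dcx by 0.79, and their summed intensity lay between 5975 and 7007 in numbers 1 to 5 and between 4565 and 6258 in numbers 16 to 20. Of astrocyte markers 3 of 10 rose (S100b by 0.85), with sums of 9518 to 11485 and then 11413 to 14837. Of microglia markers 4 of 8 rose (Cx3cr1 by 0.94), with sums of 579.5 to 661.9 and then 731.2 to 1099. Of oligodendrocyte markers 3 of 8 rose and 1 fell, with sums of 2333 to 2806 and then 2720 to 4123. Neuron markers went both ways, 3 higher and 1 lower of 19, with sums of 23307 to 28821 and then 24018 to 25518. Of erythroid markers 2 of 4 fell (Hbb by 0.47 and Alas2 by 0.54), with sums of 5608 to 8718 and then 4386 to 5669. Of 11 endothelial and mural markers 3 rose (Slco1c1 by 0.61, Rgs5 by 0.41 and Tek by 0.36) and 2 fell (Flt1 by 0.97 and Kdr by 0.45), with sums of 2330 to 2703 and then 2474 to 2811. In sham cortex, where the member median moved by -0.01, 3 of 15 progenitor markers fell, and 6 of 10 astrocyte, 5 of 8 microglia and 4 of 8 oligodendrocyte markers rose. The backgrounds there were 7.88% for lower and 6.94% for higher.

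The abundant ribosomal proteins moved together from array to array. After the mean of each group and run was taken out, the median correlation between pairs of the 34 top 1% members was 0.832, against 0.666 between pairs of the other 277 probe sets of the top 1%. Without preconditioned arrays 5 and 6 these were 0.736 and 0.447. The median was 0.033 for the 10 members below the top 1%, 0.054 for 73 mitochondrial ribosomal proteins and 0.15 for 48 translation factors. These are descriptions over 40 arrays whose probe sets share RNA, labelling and scaling.

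Per array, the median of the 34 members followed that of the other 277 probe sets with r = 0.924 over 40 arrays and 0.79 without arrays 5 and 6, given as a description. The genes most like the members over the 40 arrays, among 10253 others, were Naca, which shields nascent chains at the ribosome (r = 0.929), Prdx2, a peroxidase (0.910), Eef1b2, an elongation factor (0.899), Psmb4, a proteasome subunit (0.895), and Map1b, a microtubule protein (0.887). Without preconditioned arrays 5 and 6 these r were 0.842, 0.8135, 0.847, 0.795 and 0.718, in the same order. All 5 genes had a mean signal at or above the 98.9th percentile.

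**Figure D4:**
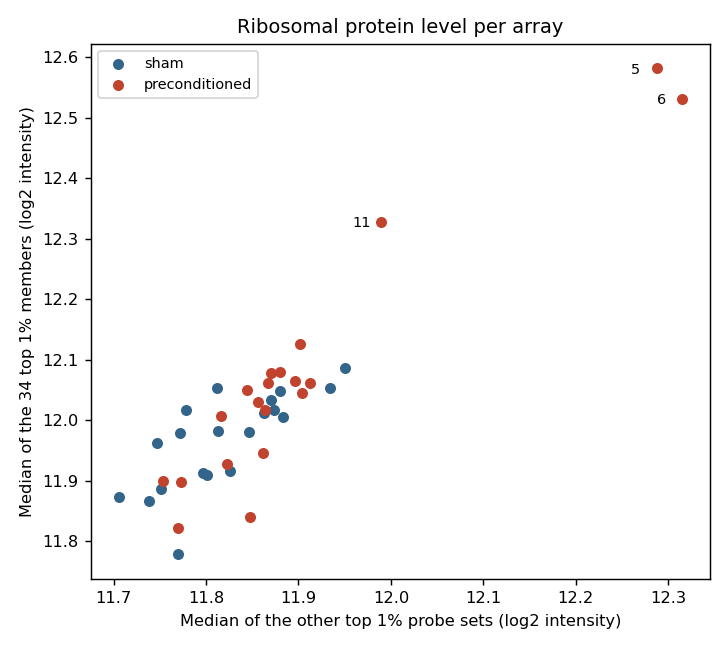
Median log2 intensity of the 34 top 1% ribosomal protein genes against the median of the other 277 probe sets of the top 1%, 1 point per array. Preconditioned arrays 5, 6 and 11 lie at the upper end, and the points rise along 1 band (r = 0.924 over 40 arrays).

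Between runs the steadiest tested members were Rpl27, with an SD of 0.053 (log2) over the 8 group means, Rpl22, at 0.056, and Rpl14, at 0.068. The most variable were Rps27l, at 0.22, Rpl26l1, at 0.14, Rpl39, at 0.13, Rpl27a, at 0.13, and Rps4y2, at 0.13. Apart from Rpl27a these lie low on the scale, where the spread within a group was also wider, with a median SD of 0.27 over probe sets between the 40th and 60th percentiles.

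Ribosomal proteins that share their probe set with other genes fell outside the rule. Of 36 such probe sets, 35 were tested. Their median was 0.21 in preconditioned against sham cortex in numbers 1 to 5, with none called by limma, and -0.27 in preconditioned numbers 16 to 20 against 1 to 5, with 17 lower. The background was 2.39% in the first comparison and 8.03% for lower in the second. Rack1, a ribosomal scaffold protein with another kind of symbol, differed by 0.09 and -0.24 in these 2 comparisons, and Naca by 0.21 and -0.28, of which only the fall of Naca was called.

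Ribosomal proteins of mitochondria, which build the separate ribosome of that organelle, had medians of the opposite sign. In preconditioned against sham cortex 2 of 73 fell in numbers 1 to 5 (Mrpl47 by 0.32 and Mrpl51 by 0.24 on the log2 scale) and 6 fell in numbers 6 to 10, with medians of -0.09 and -0.12. The backgrounds for lower were 1.15% and 1.12%. In preconditioned numbers 16 to 20 against 1 to 5, 15 of 73 rose and 1 fell, at backgrounds of 9.58% for higher and 8.03% for lower, with a median of 0.09, led by Mrpl35 (0.42), Mrpl43 (0.36) and Mrpl57 (0.36). In sham cortex over the same span these 3 rose as well, by 0.32, 0.44 and 0.38, and no other was called, at a background of 14.8%.

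Genes of ribosome assembly and RNA polymerase I, which make new ribosomes, had a median of -0.09 over 59 genes in numbers 1 to 5, with none called by limma. In numbers 6 to 10, 2 fell, Heatr1 (-0.58), a factor of ribosomal RNA processing, and Gar1 (-0.38), part of the particles that modify ribosomal RNA. The background for lower was 1.12% there. Of 48 translation factors, 1 fell in numbers 1 to 5, Eif2s1 (-0.25 ± 0.07, limma adjusted p = 0.042), the subunit phosphorylated in the stress response. The background for lower was 1.15%, and 1 of 48 is near that share. In preconditioned numbers 16 to 20 against 1 to 5, 5 of these factors fell and 2 rose, at backgrounds of 8.03% and 9.58%. The largest differences were those of Eef1a1 (-0.30), Eef1b2 (-0.27) and Eif5a2 (0.59). In sham cortex over the same span Eif5a2 rose by 0.48 and Eif3d fell by 0.21, both called, at a background of 14.8%. Eef1a1 was not called there (-0.09).

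In the mTOR pathway, 1 of 22 genes was called in numbers 1 to 5, at a background of 2.39%. Ddit4, which is induced by low oxygen and inhibits mTOR, rose by 1.56 ± 0.08 (limma adjusted p = 4.2e-18), and by 0.45 ± 0.08 in numbers 6 to 10. In preconditioned numbers 16 to 20 against 1 to 5, 6 of 22 fell, among them Ddit4 (-1.31), Eif4ebp1 (-0.56), a translation repressor that mTOR phosphorylates, and Eef2k (-0.50), which inhibits elongation. The background for lower was 8.03%. In sham cortex over the same span, 4 of 22 fell, Eef2k (-0.54), Eif4ebp1 (-0.38), Eif4ebp2 (-0.38) and Tsc1 (-0.35), and Ddit4 was not called. The background for lower was 7.88% there.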

How the data were processed

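Total RNA of rat cerebral cortex was hybridised to 40 one-colour Affymetrix arrays. The deposited values are linear intensity values per probe set. How the authors made them is not stated in the sources used here. The mean of each array without its extremes lay between 150.04 and 150.06, so the arrays had been scaled. Of 31042 probe sets without controls, 18625 passed the filter at the 40th percentile. Array medians spanned 0.29 (log2), just under the limit of 0.3 above which quantile normalization would have been the main setting. No further normalization was therefore applied, and results under quantile normalization are given as an alternative. Without preconditioned arrays 5 and 6 the array medians lay between 5.71 and 5.82. Gene names came from the platform annotation, and 48 of the 50 members matched a RefSeq gene ID. One limma 3.58.1 fit (R 4.3.3; lmFit, eBayes with trend) of 8 group-by-run means gave all contrasts, two-sided, which were tested on simulated data. The members and lists were chosen with earlier results of these data known, and the contrast of preconditioned against sham change and the centring on other top 1% probe sets after seeing the data. Named were called members with the 5 largest rises and falls, extremes of level and SD, a list of known genes, and up to 3 called genes of each other list. Alternatives were normalization, floor, pseudocount, filter, trend, probe set choice, left-out arrays, the arrays fitted and a number block.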

Additional observations from a re-analysis of the deposited data

Results flagged for a closer look

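In 5 of 48 groups of 5 arrays, 1 array lay farther from the others than Dixon's 95% limit of 0.71 for the gap over the range. About 1 in 20 groups is expected to do so by chance. Among preconditioned numbers 1 to 5, array 5 had a median member level of 12.4011, against 11.8870 to 12.0153 on the other arrays. On the same array the 34 top 1% members lay 0.2938 above the other probe sets of the top 1%, against 0.1411 to 0.1733. Rps29 was also highest there, at 13.6124 against 13.0675 to 13.2092. Among preconditioned numbers 6 to 10, array 6 was the highest for Rps29, at 13.3992 against 12.9459 to 13.0330, and for Rpl27a, at 13.0542 against 12.5265 to 12.6159. All values are log2 intensities.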

How the results depend on the processing

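Of the 2 members called singly, Rpl7l1 (preconditioned against sham, numbers 1 to 5) lost its call under median centring, which left 0 members called, and Rps27l was absent under the filter at the 60th percentile, which left 0 in sham numbers 16 to 20 against 1 to 5 and 0 in the F-test over sham runs. Quantile normalization gave 8 and 4 in those 2, 2 for sham numbers 16 to 20 against 11 to 15, 9 for preconditioned numbers 16 to 20 against 1 to 5, and member medians of 0.0058 (preconditioned against sham, numbers 1 to 5), -0.070 (preconditioned numbers 16 to 20 against 1 to 5) and -0.0050 (that span against sham). Centring on the other top 1% probe sets gave 4, 2 and 11 called and medians of 0.0040, -0.094 and -0.015 in these comparisons. The 2 in the F-test over sham runs were Rpl12 and Rpl4, so Rps27l lost that call. For preconditioned numbers 16 to 20 against 1 to 5, median centring called 7 (15.4% of all probe sets), no filter 11, and the arrays compared alone 8. For the F-test over preconditioned runs, median centring gave 1 (20.3% of all probe sets), no filter 4, the arrays compared alone 1, and leaving out arrays 5 and 6 gave 15 (22.4%). Those arrays left out gave 1 call, Rps27l, in sham numbers 16 to 20 against 11 to 15. Without the members of the top 1%, 1 call remained for both preconditioned run tests, and medians were 0.031 (numbers 1 to 5) and -0.018 (that span against sham). The average without numbers 16 to 20 called 6. The mean over all probe sets of a gene called 1 member, Rpl7l1, in the test between runs. The cause of these shifts was not tested.

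Leaving out 1 array at a time gave 1 to 3 called members in preconditioned against sham numbers 1 to 5, 0 to 1 in the average, 0 to 1 in the sham F-test and in sham numbers 16 to 20 against 11 to 15, 2 to 22 in the preconditioned F-test, and 5 to 21 in preconditioned numbers 16 to 20 against 1 to 5. The highest, 3, came without preconditioned number 2, and 22 without number 6.

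Same-numbered samples of the 2 groups correlated by 0.031 to 0.39 (median 0.16), with 15 of 20 pairs above 0.1. Between other numbers of the same run the median was -0.029. Samples of the same number were thus more alike, which the main fit did not take into account. With the replicate block, 538 probe sets were called in numbers 1 to 5 in place of 445 and 677 in numbers 6 to 10 in place of 413. Members called stayed at 1, 0, 0, 0 and 0 in the 4 runs and the average, and the test between runs called 1, Rpl7l1. Run contrasts within a group could not be fitted with the block. The number of arrays limits the precision.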
